A study of Mus musculus with 6 samples.

Results

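The receptor chains through which interleukin 4 (IL-4), interleukin 13 (IL-13) and the cytokines of the gp130 family act were examined in N2A cells, a mouse neuroblastoma line, that had been transiently transfected with 1 of 2 vectors, one expressing a short hairpin RNA (shRNA) to Pou3f3 and the other a non-targeting control. Of the 10 genes, Il4ra, Il13ra1, Il13ra2 and Il2rg encode chains of receptors for IL-4 or IL-13. Il6st, Lifr and Osmr encode chains of the gp130 family, Jak1 and Tyk2 are kinase genes, and Stat6 is a transcription factor gene. All 10 were chosen by name, with the fall of Il13ra1 in these same arrays already known. Each gene was represented by its row with the highest mean over the 6 arrays. Of the 10, 9 had a row with a single gene symbol, and each of these had only that row, so the choice by mean selected nothing among them. Il2rg had no such row and was not analysed here. These 9 are part of 19938 symbols with such a row.

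There were 3 control arrays (non-targeting vector) and 3 knockdown arrays (Pou3f3 vector), described as biological replicates. Both groups were the same line in medium with 10% fetal bovine serum, both received 1.5 μg of vector in a transient transfection, and RNA was taken 2.5 days later. The arrays measure the whole transfected population, and how many cells took up a vector was not analysed here. In such bulk samples fewer cells that express a gene and less RNA per cell cannot be told apart. All transfections came from a single line, so that p-values measure the spread between cultures of that line.

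Cytokine receptors of this class have no enzyme activity of their own and rely on Janus kinases (JAKs) bound to their inner tails. When a ligand brings receptor chains together, the kinases phosphorylate the tails and a STAT protein, which moves to the nucleus and activates genes. IL-4 binds IL-4Rα (Il4ra), which then pairs with the common γ chain (Il2rg) or with IL-13Rα1 (Il13ra1), and the latter pair is also the signalling receptor for IL-13. IL-13Rα2 (Il13ra2) binds IL-13 with high affinity and is known chiefly as a decoy. STAT6 is the main transcription factor of this branch. In the other branch gp130 (Il6st) pairs with the LIF receptor (Lifr) or the oncostatin M receptor (Osmr) and signals largely through STAT3. Leukaemia inhibitory factor (LIF) and ciliary neurotrophic factor (CNTF) are known in sympathetic neurons, the lineage to which neuroblastoma is related, as factors that change the neurotransmitter made.

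Promoter sequence is shown for the 3 IL-4 and IL-13 receptor genes that were measured, because the perturbed gene encodes a DNA-binding protein of the POU class, whose classical site is the octamer ATGCAAAT. RefSeq windows from 250 bases before to 50 after the annotated start (build GRCm38.p6) were found for all 10 genes, 11 windows in all with 2 for Lifr. The windows below hold the 150 bases just before the start, on the strand of the gene, at chrX:36111958-36112107 (+) for Il13ra1, chrX:147429193-147429342 (-) for Il13ra2 and chr7:125552121-125552270 (+) for Il4ra. Capitals mark CG dinucleotides in Il13ra1 and Il13ra2 and the octamer in Il4ra.
Il13ra1: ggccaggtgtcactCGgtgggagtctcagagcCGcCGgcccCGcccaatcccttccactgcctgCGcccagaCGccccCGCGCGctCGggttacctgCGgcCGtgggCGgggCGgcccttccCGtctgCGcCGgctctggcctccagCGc
Il13ra2: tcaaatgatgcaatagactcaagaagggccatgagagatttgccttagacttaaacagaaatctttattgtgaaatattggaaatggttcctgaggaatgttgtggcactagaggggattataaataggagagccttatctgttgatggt
Il4ra: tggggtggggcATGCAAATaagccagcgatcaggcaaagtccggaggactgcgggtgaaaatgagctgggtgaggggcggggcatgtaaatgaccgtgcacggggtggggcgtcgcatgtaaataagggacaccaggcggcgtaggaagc

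The Il13ra1 stretch held 18 CG dinucleotides and was 76.7% G or C, whereas that of Il13ra2 held 0 and was 38% G or C. Over the whole 300-base windows the CG counts were 28 for Il13ra1, 25 for Il4ra and 1 for Il13ra2, against a median of 7 over 32851 RefSeq windows of the same length. The windows of Il6st, Jak1, Tyk2 and Osmr held 33, 29, 23 and 22, that of Stat6 held 8, that of Il2rg 3, and those of Lifr 53 and 4. An exact octamer (ATGCAAAT, both strands searched) occurred in the Il4ra window, at position -139 from the start, and in no other window of the 10 genes. The octamer was present in 1.74% of all windows. The sites TTCNNNNGAA, of the kind STAT6 prefers, and TTCNNNGAA, of the kind other STAT proteins prefer, read the same on both strands and occurred in none of the 11 windows, so that the octamer overlapped no other match. They were present in 6.95% and 8.3% of all windows. These matches are letters in a fixed window and no measurement of binding.

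All expression values are log2 array values, in which a step of 1 is a doubling, and differences are knockdown minus control. A row was called when limma gave an adjusted p under 0.1 over all 21789 rows with 1 gene symbol together with a fold of at least 1.3, the cut-offs of the study's methods. Of these rows 1.99% were called, 0.684% lower and 1.3% higher in knockdown cells (149 and 284 rows). With each array centred on its median the calls were 105 lower and 491 higher. The split was not stable, with 80 lower and 67 higher calls without knockdown replicate 2, 83 and 78 without control replicate 2, and 18 and 10 over all 35556 rows. A row's level also depends on its probes, so that levels are not compared between genes.

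Pou3f3, the target, was at 8.37, 8.30 and 8.47 in control replicates 1 to 3 and at 8.20, 8.09 and 8.35 in knockdown replicates 1 to 3. The groups overlapped, and the difference of -0.16 (95% confidence interval -0.35 to 0.02) was not called (limma adjusted p = 0.303, or 0.0880 when replicate number entered the fit as a block). It lay below 0 between all 3 arrays of the same number. No fall of the target was thus called, and knockdown here names the vector that cells received.

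Il13ra1, the chain that completes the IL-13 receptor, was lower in all 3 knockdown cultures. It was at 10.66, 10.34 and 10.18 in control replicates 1 to 3 and at 9.35, 9.70 and 9.38 in knockdown replicates 1 to 3. The highest knockdown array lay 0.48 below the lowest control array. The mean moved from 10.39 ± 0.25 (SD, n = 3) to 9.48 ± 0.19 (SD, n = 3), a difference of -0.91 ± 0.13 (SE, 95% confidence interval -1.21 to -0.62), which left 53.0% of the control level. By size this was the 7th largest fall among the 19938 symbols. It was called at a limma adjusted p of 0.0182. Since this fall was known when the genes were put together, that p is a record of how the gene came to notice and not independent support. An exact two-sided permutation test gave p = 0.1, the smallest value that 3 arrays against 3 allow. The differences between arrays of the same number were -1.31, -0.64 and -0.80, all below 0 and largest between the arrays numbered 1. When the fit ran over all 35556 rows, those with no listed symbol or several included, the adjusted p was 0.129, and with the more variable rows among all 35556 kept it was 0.168, so that Il13ra1 was not called in either. The latter follows the study's variance filter, whose stated cut-off of 0.5 was taken here to be a quantile. The same filter within rows of 1 symbol gave an adjusted p of 9.55e-07 and kept the call. This filter uses the variance over all arrays of both groups, which includes the group difference. The p after it is thus no independent support.

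Il4ra, the chain shared by IL-4 and IL-13 signalling, was at 9.89, 9.99 and 10.17 in control and at 9.72, 9.74 and 9.82 in knockdown replicates 1 to 3. The groups did not overlap, but were only 0.07 apart. The difference of -0.26 ± 0.08 (SE, 95% confidence interval -0.44 to -0.07) left 83.6% of the control level and was not called (limma adjusted p = 0.145). Blocking on replicate number gave it an adjusted p of 0.0261, with a difference still under the fold cut-off. Its unadjusted p was 0.0117, and 19.9% of all rows had an unadjusted p under 0.05.

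Il13ra2, the decoy chain, was at 4.61, 4.74 and 4.53 in control and 4.58, 4.55 and 4.69 in knockdown cells. Its groups overlapped fully, and the difference was -0.02 (95% confidence interval -0.19 to 0.15, limma adjusted p = 0.914). The row belonged to the lowest class of row means (3.43 to 5.79) and detection above background was not analysed here, so that a change at such a level might not be measurable. Il13ra1 and Il13ra2 both lie on chromosome X.

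**Figure D1:**
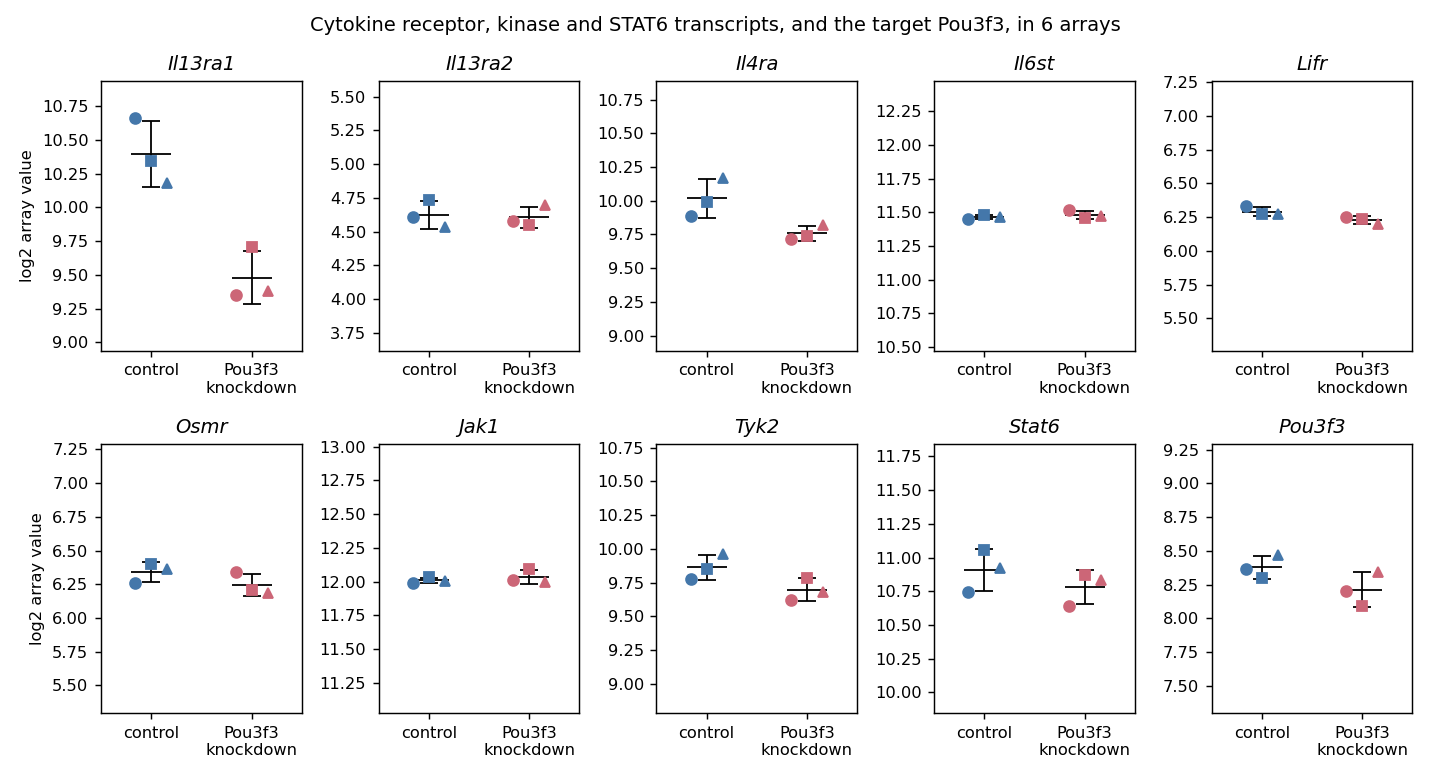
Array values on the log2 scale (each vertical axis covers 2 units) of the 9 measured genes and of the target Pou3f3 in 3 control (blue) and 3 Pou3f3 knockdown (red) arrays. Circles, squares and triangles are replicates 1, 2 and 3, and black bars are means ± SD (n = 3). The gap between groups is 0.48 for Il13ra1, 0.07 for Il4ra and 0.02 for Lifr, and the groups overlap for the other 7 genes shown.

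In the gp130 branch no receptor gene was called. Il6st, which encodes the shared signal-transducing chain, was at 11.45, 11.48 and 11.47 in control and 11.52, 11.46 and 11.47 in knockdown cells. The 6 values spanned less than the cut-off in fold, and the difference was 0.02 (95% confidence interval -0.12 to 0.15, limma adjusted p = 0.893). This interval lies within the fold cut-off of 0.38 on the log2 scale in both directions.

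Lifr was at 6.33, 6.27 and 6.27 in control and 6.25, 6.24 and 6.20 in knockdown cells. The groups were apart by 0.02, and the difference was -0.06 (95% confidence interval -0.20 to 0.08, limma adjusted p = 0.591). Osmr was at 6.26, 6.40 and 6.36 in control and 6.34, 6.21 and 6.18 in knockdown cells, with overlapping groups and a difference of -0.10 (95% confidence interval -0.26 to 0.07, limma adjusted p = 0.478). Both rows belonged to the class of row means from 5.79 to 6.64, in which the median difference over all rows was -0.06. Lifr and Osmr are direct neighbours on chromosome 15 in the gene order of the reference table. The genes beside them, Egflam on the side of Lifr and Rictor on the side of Osmr, differed by -0.15 and 0.24 (limma adjusted p = 0.278 and 0.246), and neither was called.

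Among the signalling genes Jak1, the kinase that serves most of these receptors, was at 11.99, 12.03 and 12.01 in control and 12.01, 12.09 and 11.99 in knockdown cells. The groups overlapped, and the difference was 0.02 (95% confidence interval -0.12 to 0.17, limma adjusted p = 0.850). Tyk2, which can bind IL-13Rα1, was at 9.77, 9.85 and 9.96 in control and 9.62, 9.79 and 9.68 in knockdown cells. Its groups overlapped by 0.01, and the difference of -0.17 (95% confidence interval -0.34 to 0.00496) was not called (limma adjusted p = 0.263). It was below 0 between all 3 arrays of the same number. Stat6 was at 10.75, 11.05 and 10.92 in control and 10.64, 10.87 and 10.83 in knockdown cells, and again was lower in each of the 3 same-number comparisons while the groups overlapped. Its difference was -0.13 (95% confidence interval -0.34 to 0.09, limma adjusted p = 0.472).

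**Figure D2:**
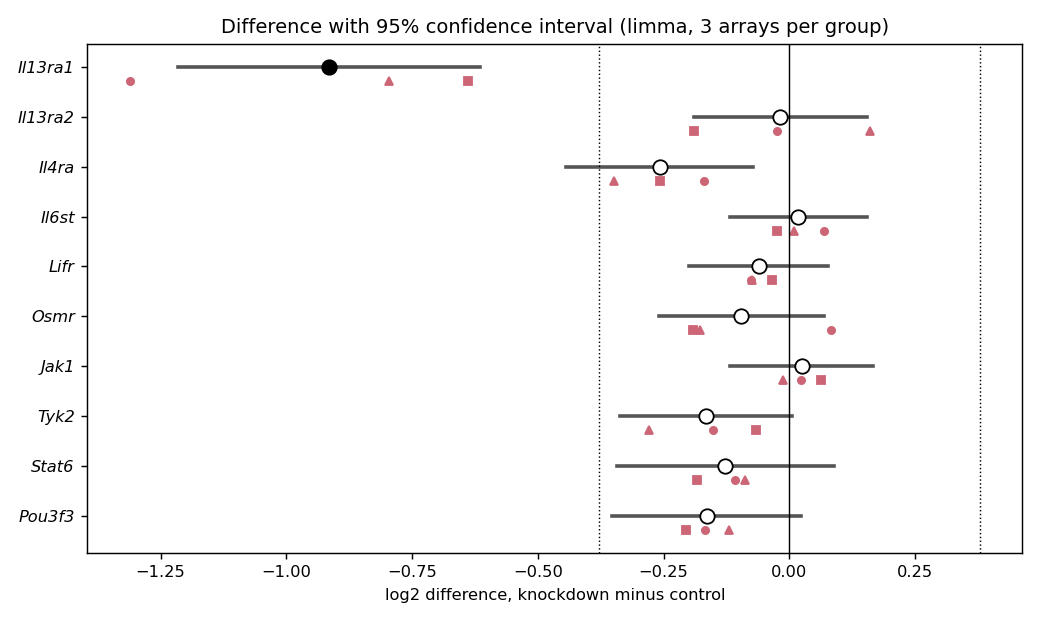
Log2 difference, knockdown minus control (horizontal axis), for the 9 genes and Pou3f3. Black-edged circles with grey bars are differences with 95% confidence intervals (limma, n = 3 per group), filled where called, small red symbols are differences between arrays of replicate number 1 (circle), 2 (square) and 3 (triangle), and dotted lines mark the fold cut-off of 1.3. Il13ra1, at -0.91, is the filled circle, and the other 8 genes of the group lie between -0.26 and 0.02.

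Across the 9 measured genes, 1 was called (Il13ra1, lower, the fall already known), beside 1.99% of all rows called and 0.684% called lower. Of the 9, 2 had an unadjusted p under 0.05, beside 19.9% of all rows. The differences were below 0 for 7 of the 9, against 57.5% of all rows. With arrays centred on their medians 6 lay below 0 (Il13ra2 then lay above it), against 42.9% of all rows, and after cyclic loess 8 did (Il6st then lay below 0), against 50.8%. The median difference was -0.10, against -0.03 over all rows. It was -0.05 with median centring and -0.04 after cyclic loess, against 0.02 and -0.00223 over all rows. Groups did not overlap for 3 of the 9 genes, all of them lower in knockdown cells, where 26% of all rows had groups that did not overlap and 15.1% had groups apart in the lower direction. By level, 7 of the 9 lay within the central 90% of differences among rows of similar mean, and Il13ra1 and Il4ra lay below it. In their shared class (row means of 9.51 to 10.26) the 5th percentile of differences was -0.24 and the median 0.07. Spread between arrays of a group also varied: the within-group SD was largest for Il13ra1 (0.22), smallest for Il6st (0.02) and had a median of 0.09 over both the 9 genes and all rows. Control replicate 1 held the lowest control value for 6 of the 9 genes but the highest one for Il13ra1 and Lifr.

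The row next to Il13ra1 in the gene order of chromosome X was also lower. Zcchc12, a zinc finger protein gene on one side of Il13ra1, was at 10.85, 10.80 and 10.98 in control and 10.48, 10.51 and 10.46 in knockdown cells, and its groups did not overlap. It fell by 0.39 (SE 0.07, limma adjusted p = 0.0320), close to the fold cut-off. With arrays centred on their medians its difference was -0.34 and it was not called, and neither was it called without control replicate 3 (adjusted p = 0.119), without knockdown replicate 2 (adjusted p = 0.117), over all 35556 rows (adjusted p = 0.136) or with the variance filter on all rows (adjusted p = 0.309). With that filter within rows of 1 symbol it was called (adjusted p = 0.0345). Dock11, on the other side, differed by 0.01 (limma adjusted p = 0.984). Over the 6 arrays the symbols most like Il13ra1 were Defb1, Otop3 and Ufsp1, with Pearson correlations of 0.996, 0.994 and 0.992 among 19937 symbols. A correlation does not measure the size of a difference. Defb1 and Otop3 differed by only -0.12 and -0.18 and were not called (limma adjusted p = 0.308 and 0.170). Ufsp1 differed by -0.39 and was called (limma adjusted p = 0.0541). The 6 points share the difference between groups, and 88 symbols had a correlation of at least 0.95. None of the other 8 genes of the group was above 0.855.

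Other genes of the pathway were taken from lists by role. Of 121 genes listed, 116 were measured, of which limma called 3 lower and 0 higher, beside 0.684% and 1.3% of all rows. Npy and Dbh, among the 3, belong to a list drawn up with the fall of Dbh known, so that this count is no independent evidence. Genes with an unadjusted p under 0.05 are counted list by list and stand beside the 19.9% of all rows. No ligand gene was called among 12 measured, and 1 had an unadjusted p under 0.05 (higher). Il6 was farthest from 0, at 0.28 ± 0.16 (SE, limma adjusted p = 0.356). The list median was -0.02, or 0.03 with median-centred arrays.

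Of 23 other cytokine receptor subunits, Ifngr2, the second chain of the interferon γ receptor, was the single call, and 5 had an unadjusted p under 0.05, of which 3 were below 0. It was at 12.63, 12.63 and 12.77 in control and 12.20, 12.25 and 12.30 in knockdown cells, with groups well apart. It fell by 0.43 (SE 0.07, limma adjusted p = 0.0227). With median centring its difference of -0.38 was just under the fold cut-off, without knockdown replicate 2 its adjusted p was 0.105, and it was not called over all 35556 rows (adjusted p = 0.121) or with the variance filter on all rows (adjusted p = 0.291), but was with that filter within rows of 1 symbol (adjusted p = 0.0209). Chosen after their values were seen, 3 further subunits had an adjusted p under 0.1 with a fold below the cut-off. Ifnar2, a chain of the type I interferon receptor, differed by 0.37 (limma adjusted p = 0.0339). Il15ra, which presents IL-15, differed by 0.34 (adjusted p = 0.0855), and Cntfr, which binds CNTF together with gp130 and the LIF receptor, differed by -0.34 (adjusted p = 0.0776). In median-centred arrays Ifnar2 and Il15ra were called higher and Ifngr2 was not called. The median over the 23 was -0.08, or -0.03 with median centring.

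None of 6 other JAK and STAT genes was called, and 1 had an unadjusted p under 0.05 (Stat5b, 0.23 ± 0.07 SE, limma adjusted p = 0.147). Of 16 feedback inhibitors and phosphatases none was called, and 2 had an unadjusted p under 0.05, both above 0. The suppressor of cytokine signalling gene Socs4 had the largest difference, 0.37 ± 0.15 (SE, adjusted p = 0.223). With median centring Ptpn2, a phosphatase that acts on JAK1 and STAT proteins, was called. Of 8 receptor adaptors none was called, and 2 had an unadjusted p under 0.05, both below 0, with Irs1, a docking protein of the IL-4 receptor, at -0.19 ± 0.07 (SE, adjusted p = 0.180). The medians of these 3 lists were -0.01, 0.05 and -0.05, or 0.04, 0.10 and -0.00286 with median centring.

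Genes known to respond to STAT6 or STAT3 in other cells showed no call. Of 20 STAT6 target genes, 4 had an unadjusted p under 0.05, of which 3 were below 0. Gata3, which is also a factor of the sympathetic lineage, differed by -0.33 ± 0.07 (SE, limma adjusted p = 0.0484), under the fold cut-off. The lipoxygenase gene Alox15, named after its value was seen, differed by -0.27 (adjusted p = 0.0713), also under it. Of 21 STAT3 target genes, 0 had an unadjusted p under 0.05, and Cebpb differed by 0.23 ± 0.10 (SE, adjusted p = 0.257). The medians of both lists, -0.06 and -0.05, were -0.01 and 0.00463 with median centring.

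Of 10 neuropeptide and transmitter genes known to be controlled by LIF and CNTF in sympathetic neurons, 2 fell, and 3 had an unadjusted p under 0.05, all below 0. The list was not divided by whether LIF and CNTF raise or lower a gene, so that this count gives no direction of their action. The neuropeptide gene Npy was at 10.22, 9.97 and 10.25 in control and 9.52, 9.25 and 9.52 in knockdown cells. The groups were apart, and Npy fell by 0.72 (SE 0.10, limma adjusted p = 0.0169), although it was not called over all 35556 rows (adjusted p = 0.118) or with the variance filter on all rows (adjusted p = 0.201). With that filter within rows of 1 symbol it was called (adjusted p = 6.38e-05), but the variance used includes the group difference. Dbh, the enzyme that makes noradrenaline, was at 12.21, 12.64 and 12.32 in control and 11.07, 11.36 and 11.25 in knockdown cells, again with groups apart. It fell by 1.17 (SE 0.12, adjusted p = 0.00471). This list was drawn up with the fall of Dbh known, so that its count is no independent evidence of a direction. With the replicate block Th, the first enzyme of the same synthesis, was also called (adjusted p = 0.0420, difference -0.38), in a fit that called 2.5% of all rows. Expression of the LIF and CNTF receptor chains is given above, and whether it bears on these genes was not tested.

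**Figure D3:**
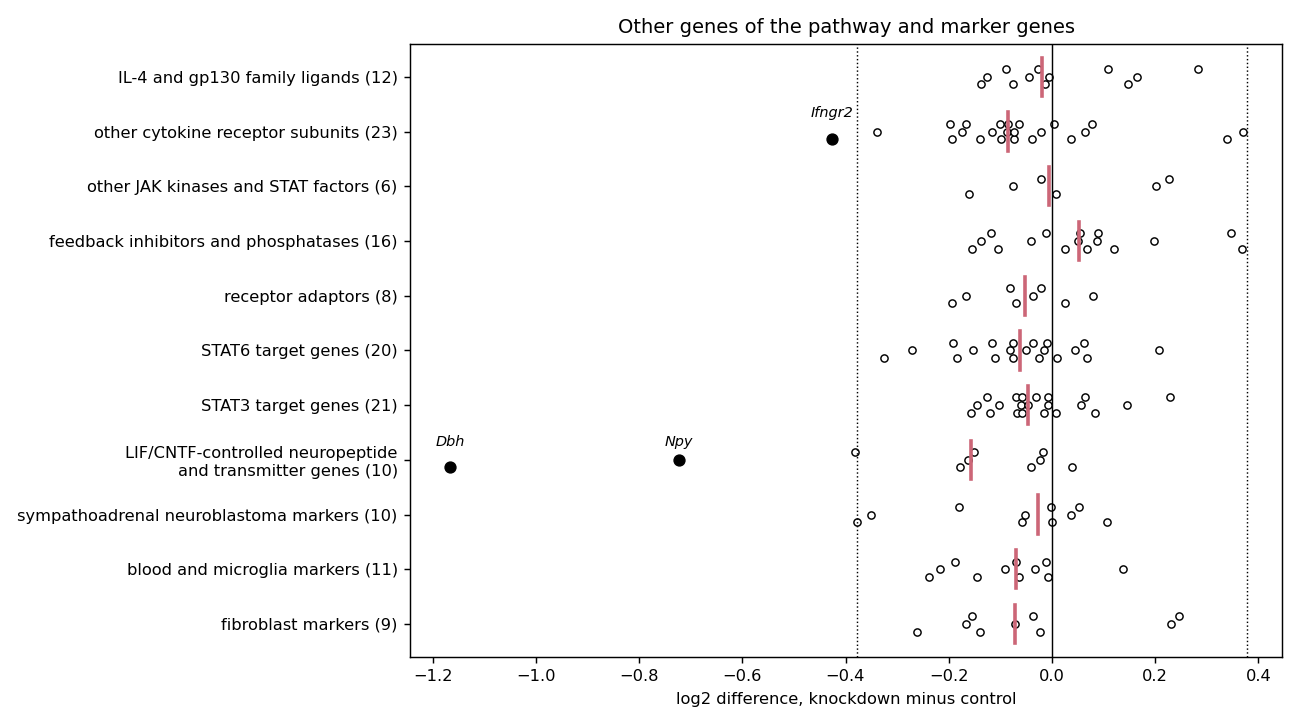
Log2 difference, knockdown minus control (horizontal axis), of each measured gene of 8 pathway lists and 3 marker lists (number measured in brackets). Filled points are called genes, red bars are list medians and dotted lines mark the fold cut-off of 1.3. Dbh, Npy and Ifngr2 are the 3 called genes, and list medians lie between -0.16 and 0.05.

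The arrays carried the profile of the labelled cells. Of 12 sympathoadrenal markers 10 were measured, with control means between 6.24 (the neurofilament gene Nefm) and 13.80 (Chgb), and none was called, although Chgb was called after cyclic loess. Chgb differed by -0.38 and the related granin gene Chga by -0.35 (limma adjusted p = 0.0456 and 0.0628), and these were the 2 with an unadjusted p under 0.05. The transcription factor genes Hand2 and Phox2a were between 11.06 and 12.63 in all arrays. Because receptors of this family are most familiar from blood cells and fibroblasts, markers of those cells were examined too. The 11 measured markers of blood cells and microglia had control means between 5.80 and 7.68. None was called, and 3 had an unadjusted p under 0.05. Below 0 lay 10, or 7 with median centring and 6 after cyclic loess, against 57.5%, 42.9% and 50.8% of all rows. The list median was -0.07, or -0.00426 after cyclic loess. In the classes of row means from 5.79 to 7.82, the medians over all rows were -0.06, -0.08 and -0.09. Summed linear values of the 11 markers, as deposited, ran from 1396 to 1488 in control and from 1295 to 1386 in knockdown arrays. Sums after rescaling were not taken, so that these sums include the shift of rows at such levels. Of 9 fibroblast markers none was called and 4 had an unadjusted p under 0.05, of which 2 were above 0. Their sums ran from 2452 to 2582 and from 2374 to 2624. RMA values do not reach 0, so that absence of a marker cannot be read from them, and the part of other cells in the values of Il13ra1 was not tested.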

How the data were processed

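Total RNA of 6 cultures was hybridised to Affymetrix Mouse Gene 1.0 ST arrays. The values deposited by the authors are log2 expression per gene, after RMA background correction and quantile normalisation. RMA and limma are named without versions in the submitters' processing notes. For the array values the sources used here name no genome build. Quantile normalisation hides a change shared by most genes. Values ran from 3.16 to 14.89 and array medians from 7.90 to 8.01. The scale was read from the methods and the values, and 6 arrays limit the precision.

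Of 35556 rows, 21789 had 1 gene symbol in the platform table, 1621 had several and 12146 were not listed. RefSeq GRCm38.p6 gave names, gene order and promoters. Rows with 1 symbol were fitted in R 4.3.3 with limma 3.58.1 (lmFit, eBayes, Benjamini-Hochberg adjustment, 3 against 3, no block). The study filtered rows by variance (cut-off 0.5, taken here to be a quantile), a step used here as an alternative because it removed 6 of the 9 genes. That variance spans both groups and includes the group difference, so that p-values after the filter are no independent support. The fit was tested on simulated arrays, with settings and outcome not reported here. Arrays numbered 1 deviated together (correlation of deviations from group means 0.638). For numbers 2 and 3 the correlations were 0.307 and 0.289, little above the highest between arrays of different number (-0.478 to 0.254). Pairing by number was thus clear only for number 1, and blocked fits are given as an alternative where they change a call.

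The genes, the lists and the row set were chosen with earlier results of these data known. Named genes are the 9, Pou3f3, called genes of each list or otherwise the one with the largest difference, neighbours of Il13ra1, Lifr and Osmr, and the 3 symbols most like Il13ra1. Lists were ligands, other receptor subunits, JAK and STAT genes, inhibitors, adaptors, STAT6 and STAT3 targets, genes controlled by LIF and CNTF, and sympathoadrenal, blood and fibroblast markers. Alternatives were other row sets, a filter on dim rows, the replicate block, median centring, cyclic loess, a trended robust variance, no fold cut-off, mean of rows and leaving out each array.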

Additional observations from a re-analysis of the deposited data

How the results depend on the processing

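The difference of Il13ra1 stayed below 0 in all 15 alternative fits, from -1.03 to -0.78, and it was called in all but 2. With the study's variance filter over all rows, its cut-off of 0.5 taken to be a quantile, it was -0.91 (limma adjusted p = 0.168), with 12 rows and 0 of the 9 genes called, and with all 35556 rows unfiltered it was -0.91 (adjusted p = 0.129), with 28 rows and 0 of the 9 genes called. Both of these fits include rows with several symbols or none listed. The same variance filter within rows of 1 symbol called 542 rows, Il13ra1 among them (adjusted p = 9.55e-07). The variance used includes the group difference, so that this p is no independent support. Without the fold cut-off 969 rows were called. Leaving out 1 array gave 147 to 611 called rows (161 without control replicate 2, 219 without control replicate 3 and 147 without knockdown replicate 2), 1 called gene of the group each time (Il13ra1), Il13ra1 differences from -1.03 to -0.78 and a median of the 9 genes from -0.14 to -0.06. With the replicate number as a block 544 rows were called, Il13ra1 had an adjusted p of 0.00207, and no call among the 9 genes changed. Differences close to 0 turned: Il13ra2 was at 0.0323 with median centring and ran from -0.0637 to 0.0378 on leaving out 1 array, Il6st was at -0.0110 after cyclic loess, and Jak1 ran from -0.00584 to 0.0442 on leaving out 1 array. Il13ra2, Lifr and Osmr were removed by the filter on dim rows, and each gene has a single row, so that averaging rows left the values of the 9 genes as they were.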
